A study of Saccharomyces cerevisiae with 12 samples.

Results

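RGI1 and RGI2 are a duplicated pair of yeast genes named for their induction during respiratory growth. Both were taken by their systematic names, YER067W and YIL057C, and they are 2 of the 6893 features listed in the study's tables. The pair was chosen by its expression levels in the 4 groups described here, so those levels and their differences are a description and carry no test. RNA was sequenced from 12 Saccharomyces cerevisiae libraries taken at 36 h, in 4 groups of 3 replicates, each group 1 strain. Strain YJ-06 (high level of S-adenosylmethionine, SAM) and strain YJ-04 (low SAM) carried an introduced module for bikaverin, a fungal pigment. Strain YJ-09 (high SAM) and strain YJ-08 (low SAM) carried pRS416, a shuttle plasmid. The labels do not say how SAM was raised, which other alleles the strains carry or whether replicates were separate cultures. The p-values below thus set a difference between groups against the spread among these libraries only. That spread may be technical, so the p-values do not speak for further cultures of a strain.

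RGI2 was listed in both tables. RGI1 was listed in the bikaverin table and was not analysed here in the pRS416 strains. The bikaverin and pRS416 tables were scaled apart, so levels are compared within a table and the differences of the 2 strain pairs are set side by side. The 6 features of the introduced module in the pRS416 table reached at most 1.26 FPKM in YJ-09 and 0.805 FPKM in YJ-08 libraries (FPKM is a read number divided by gene length and library total). The module was not analysed here in the bikaverin strains, so these values do not check the labels of YJ-06 and YJ-04. Reads recovered on matched genes came to 15.0 to 17.8 M for a bikaverin library and to 40.1 to 45.1 M for a pRS416 library. These sums are approximate, since some passed the library total recovered from the same FPKM. In low-SAM replicate 3 of the bikaverin strains the sum was 17.8 M against a total of 17.7 M. It was 41.7 against 40.7 M and 45.1 against 43.1 M in high-SAM replicates 2 and 3 of the pRS416 strains. The cause was not tested.

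The products of RGI1 and RGI2 are small proteins of unknown molecular function that are linked to energy metabolism under respiration. Budding yeast represses respiration and the use of ethanol, acetate and fatty acids while glucose is plentiful. When glucose runs out, the kinase Snf1 relieves repressors such as Mig1, and activators such as Adr1, Cat8 and the Hap2/3/4/5 complex turn on genes of non-sugar carbon and of respiration. Entry into that state overlaps with a general stress response driven by Msn2 and Msn4, which bind stress elements.

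The genes lie on different chromosomes. RGI1 is a single exon on chromosome V, 292066 to 292551, plus strand, and RGI2 a single exon on chromosome IX, 247902 to 248396, minus strand, in build R64 of RefSeq. Neither overlapped another annotated gene. The coding sequences of RGI1 and RGI2 are 486 and 495 bases long and identical at 66.6% of 485 aligned bases. The longest stretch shared without a mismatch was 11 bases, and apart from each other no similar sequence was found in the genome. The 300 bases before the start codon of RGI1 are shown because they hold a cluster of stress elements (AGGGG), written in capitals (chrV:291766-292065, plus strand, 5′ to 3′).
RGI1: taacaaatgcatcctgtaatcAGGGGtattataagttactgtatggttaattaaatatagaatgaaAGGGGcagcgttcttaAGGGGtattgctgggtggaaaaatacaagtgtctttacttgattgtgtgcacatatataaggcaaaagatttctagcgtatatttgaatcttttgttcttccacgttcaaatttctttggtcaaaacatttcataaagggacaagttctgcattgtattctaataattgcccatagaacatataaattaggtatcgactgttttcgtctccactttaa
The capitals mark 3 stress elements.

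Motifs of 5 kinds were searched on both strands before RGI1. They were the stress element, GC box (GNGGGG), Adr1 site (TTGGNG), Hap box (CCAAT) and the carbon source element of Cat8 and Sip4. The letters used for the GC box only approximate a Mig1 site. The 3 stress elements start 279, 234 and 218 bases from the start codon. At least 1 stress element was found before 22.2% of 6001 coding genes in windows of this length, and at least 3 before 0.55%. The window of RGI1 held no match to the GC box, the Adr1 site, the Hap box or the carbon source element, which were found before 13.6%, 32.8%, 41.8% and 3.92% of coding genes. Over 600 bases, RGI1 gained a further stress element at 409 and an Adr1 site on the opposite strand at 571 bases, and no 2 matches to different motifs overlapped. A match is a stretch of letters and was not tested as a bound site.

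In the bikaverin strains, RGI2 had 23.4, 21.5 and 27.6 FPKM in the 3 high-SAM libraries, against 1575, 1482 and 1277 FPKM in the 3 low-SAM libraries. The groups lay far apart, with every high-SAM library at or below 0.0216 of the lowest low-SAM library. These values rest on 164 to 229 reads per high-SAM library and on 11158 to 12774 reads per low-SAM library. RGI2 averaged 24.2 ± 3.11 FPKM in high SAM and 1445 ± 153 FPKM in low SAM (SD, n = 3 each), or 59.7-fold lower in high SAM. On the scale of log2(FPKM + 1) the difference, high minus low SAM, was -5.84, the ninth most negative of 6459 tested features. In the same comparison 56.7% of tested features were called at an adjusted p below 0.05, 28.8% higher and 27.9% lower. The place of RGI2 among all features moved accordingly. It ranked 4417 to 4869 from the highest of 6845 features in high SAM, and 68 to 100 in low SAM. In bulk RNA, fewer cells that express a gene and less RNA per cell cannot be told apart.

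RGI1 had 44.9, 72.9 and 70.1 FPKM in the 3 high-SAM libraries, against 62.6, 46.6 and 86.7 FPKM in the 3 low-SAM libraries of the bikaverin strains. The groups overlapped, with the lowest library in high SAM and the highest in low SAM, and the spread within a group was larger than the distance between the means. RGI1 averaged 62.7 ± 15.4 FPKM in high SAM and 65.3 ± 20.2 FPKM in low SAM (SD, n = 3 each), from 347 to 744 reads per library. The log2 difference was -0.04, a size exceeded by all but 6.32% of tested features, and with 1 library left out it lay between -0.26 and 0.18. Variation among replicates was also larger for RGI1, whose coefficient of variation was 24.6% in high SAM and 30.9% in low SAM, against 12.9% and 10.6% for RGI2.

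The order of the paralogs was opposite in the 2 bikaverin groups. FPKM is per length, so the levels of the genes can be set against each other within a library. RGI2 stood at 0.521, 0.295 and 0.394 of the level of RGI1 in the 3 high-SAM libraries, and at 25.2, 31.8 and 14.7 times that level in the low-SAM libraries. RGI2 was thus the lower paralog in all 3 high-SAM libraries and the higher one in all 3 low-SAM libraries. Its share of the summed FPKM of both genes was 28.4% ± 5.72 in high SAM and 95.6% ± 1.73 in low SAM (SD, n = 3 each). The summed level was 86.9 ± 16.1 FPKM in high SAM and 1509.8 ± 138.2 FPKM in low SAM, so that the sum was carried mostly by RGI1 in high SAM and by RGI2 in low SAM.

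In the pRS416 strains, RGI2 was again lower in high SAM. It had 107, 128 and 126 FPKM in the 3 high-SAM libraries, against 1602, 1594 and 1427 FPKM in the 3 low-SAM libraries. These rest on 2306 to 2679 reads per high-SAM library and on 29714 to 35611 reads per low-SAM library. No library of one group came near the other, and the largest high-SAM value was 0.09 of the smallest low-SAM value. RGI2 averaged 120.4 ± 11.5 FPKM in high SAM and 1541 ± 98.8 FPKM in low SAM (SD, n = 3 each), which is 12.8-fold lower in high SAM and a log2 difference of -3.67. In this comparison 77.5% of 6342 tested features were called, 39.1% higher and 38.4% lower, and 57 features were more negative than RGI2. RGI2 ranked 1343 to 1513 from the highest of 6818 features in high SAM, and 67 to 80 in low SAM. The log2 differences of RGI2 stand at -5.84 in the bikaverin strains and -3.67 in the pRS416 strains, with no test of their distance because these values led to the choice of the gene.

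**Figure D1:**
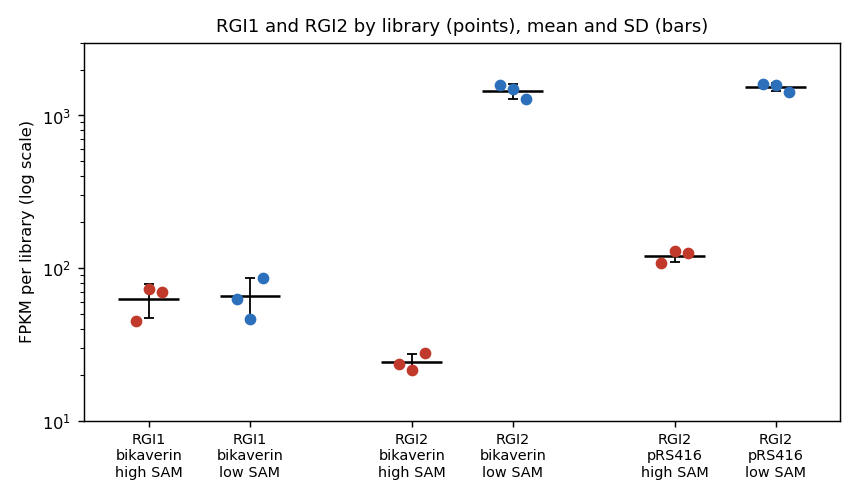
Level of RGI1 (bikaverin strains) and RGI2 (bikaverin and pRS416 strains) in FPKM on a log axis; points are libraries, bars the mean and SD of 3. The libraries of RGI1 overlap, at 44.9 to 72.9 FPKM in high SAM and 46.6 to 86.7 FPKM in low SAM. RGI2 averages 24.2 FPKM in high SAM and 1445 FPKM in low SAM of the bikaverin strains. In the pRS416 strains RGI2 averages 120.4 FPKM in high SAM and 1541 FPKM in low SAM.

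The split of RGI1 and RGI2 was set beside 23 other pairs of duplicated genes, mostly isozymes of carbon and energy metabolism listed for this purpose. The log2 differences of RGI2 and RGI1 in the bikaverin strains were 5.80 apart, the widest of these 24 pairs, whose median was 0.758. GDH3 and GDH1, for glutamate dehydrogenases, came next with 3.03, and the transketolase genes TKL2 and TKL1 followed with 1.87. GDH3 and GDH1 also changed order, with means of 118.8 and 836 FPKM in high SAM and 1277 and 1083 FPKM in low SAM. Such a change of order between the group means was found in 6 of the 24 pairs. Wide splits were seen in the pRS416 strains too, for 23 pairs without RGI1, whose median was 0.905. The external NADH dehydrogenase genes NDE2 and NDE1 were 6.26 apart there, TKL2 and TKL1 5.79, and the 6-phosphogluconate dehydrogenase genes GND2 and GND1 4.36. These are descriptions of a hand-made list and carry no test. RGI1 and RGI2 were chosen by these same levels, so their rank among the 24 pairs was partly set by that choice.

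**Figure D2:**
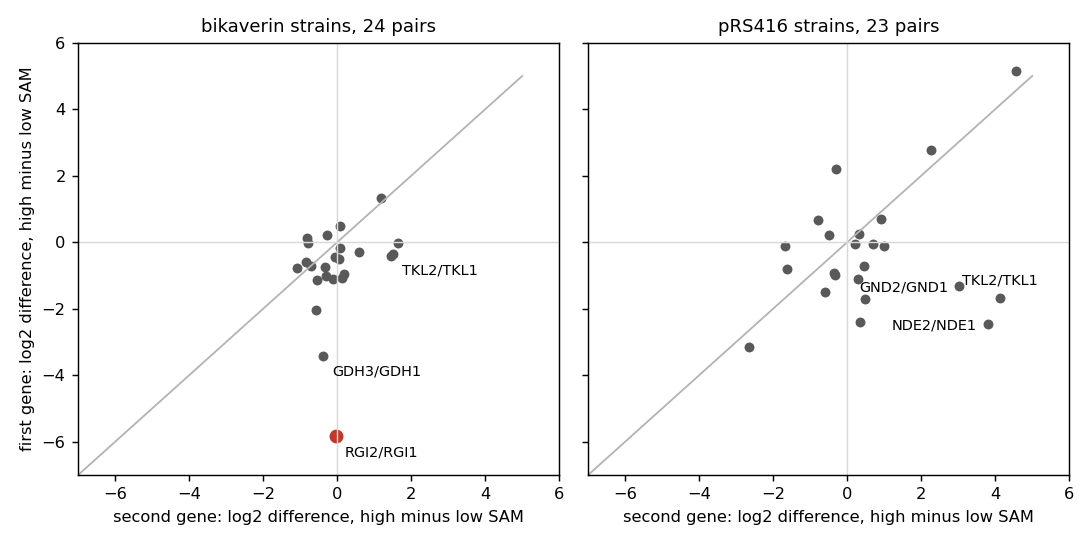
Log2 difference (high minus low SAM, log2(FPKM + 1)) of the first gene (y axis) against the second gene (x axis) of each duplicated pair, in the bikaverin strains (24 pairs) and the pRS416 strains (23 pairs); the grey diagonal marks equal differences. RGI2/RGI1 lies farthest from the diagonal in the bikaverin strains, 5.80 apart, and NDE2/NDE1 in the pRS416 strains, 6.26 apart.

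Genes turned on by Adr1 or Cat8 once glucose is used up were mostly lower in high SAM, with exceptions in the pRS416 strains. In the bikaverin strains 27 of 30 fell and 0 rose, where 27.9% of all features fell and 28.8% rose, and the median log2 difference was -1.63 against 0.01 over all features. The acyl-CoA oxidase gene POX1 fell to 61.5 ± 1.22 FPKM in high SAM, against 611.1 ± 5.46 FPKM in low SAM (n = 3 each, log2 difference -3.29, adjusted p = 1.06e-07), and the peroxisomal catalase gene CTA1 to 37.3 ± 2.56 FPKM, against 444.2 ± 16.9 FPKM. In the pRS416 strains 19 of the 30 fell and 8 rose, where 38.4% of all features fell and 39.1% rose, and the median was -1.08 against -0.01 over all features. The acetate transporter gene ADY2 fell to 12.8 ± 1.29 FPKM in high SAM, against 1147 ± 111 FPKM in low SAM (n = 3 each, log2 difference -6.37, adjusted p = 1.37e-10). ATO3, for an ammonium exporter of the same family, fell to 28.8 ± 1.42 FPKM, against 1119 ± 91.0 FPKM. Among the 8 that rose were genes of gluconeogenesis and the glyoxylate cycle, named here after their values were seen. PCK1, for phosphoenolpyruvate carboxykinase, rose to 2489 ± 195 FPKM in high SAM, against 162.3 ± 12.9 FPKM in low SAM of the pRS416 strains (15.3-fold, adjusted p = 1.26e-09 in limma). FBP1, for fructose-1,6-bisphosphatase, rose 12.7-fold and ICL1, for isocitrate lyase, 5.81-fold. In the bikaverin strains PCK1, FBP1 and ICL1 were not past the threshold (log2 differences 0.01, -0.19 and -0.25), and ICL1 was past it without high-SAM replicate 1 (-0.55, adjusted p = 0.00284).

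Most respiratory chain and ATP synthase genes of the nucleus went opposite ways in the strain pairs. With the bikaverin module 30 of 36 fell and 3 rose (median log2 difference -0.67), where 27.9% of all features fell. COX7, for a cytochrome c oxidase subunit, fell to 356.9 ± 21.2 FPKM in high SAM, against 835.7 ± 33.5 FPKM in low SAM (n = 3 each, adjusted p = 2.82e-05), and QCR2, for a subunit of complex III, to 369.9 ± 20.04 FPKM, against 729.4 ± 17.6 FPKM. In the pRS416 strains all 36 rose (median 1.62), where 39.1% of all features rose. COX7 rose there to 2290.0 ± 113 FPKM in high SAM, against 810.5 ± 57.6 FPKM in low SAM (n = 3 each, adjusted p = 3.92e-07), and QCR2 to 997.2 ± 106 FPKM, against 323.8 ± 16.2 FPKM. The 3 that rose with the bikaverin module thus rose in both pairs, and the cytochrome c genes CYC1 and CYC7 were among them. Their log2 differences were 1.31 and 1.19 in the bikaverin strains and 5.15 and 4.56 in the pRS416 strains. For all 36 the difference between the strain pairs (bikaverin minus pRS416) was itself called and negative, with a median of -2.23, where 57.3% of all features were called, 29.3% negative and 28.0% positive. RGI2 stood 12.8-fold lower in high SAM of the pRS416 strains, in which each listed respiratory chain gene was higher.

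General stress genes were called in both directions. In the bikaverin strains 13 of 34 fell and 6 rose (median -0.34), or 38.2% and 17.6%, where 27.9% of all features fell and 28.8% rose. Of the 34, 14 fell and 16 rose in the pRS416 strains (median 0.16), or 41.2% and 47.1%, shares near the 38.4% and 39.1% of all features. The cytosolic catalase gene CTT1 fell in both, to 303.9 ± 68.4 FPKM in high SAM, against 1449 ± 238 FPKM in low SAM of the bikaverin strains, and to 706.8 ± 70.0 FPKM, against 2410.0 ± 27.2 FPKM in the pRS416 strains. HSP12, for a membrane-stabilizing stress protein, fell to 5419.5 ± 363 FPKM in high SAM, against 14340.1 ± 919 FPKM in low SAM of the bikaverin strains, and to 13065.5 ± 716 FPKM, against 34274.5 ± 418 FPKM in the pRS416 strains. The second of these calls was lost with quantile normalization (adjusted p = 0.453). The aldehyde dehydrogenase gene ALD3 fell in the pRS416 strains (log2 difference -2.88) and was not past the threshold in the bikaverin strains (-0.37, adjusted p = 0.0686; 0.0158 without low-SAM replicate 2), and it is uncertain because a copy of 91.8% identity exists. The mitochondrial chaperone gene HSP78 rose in both (0.91 and 2.53).

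**Figure D3:**
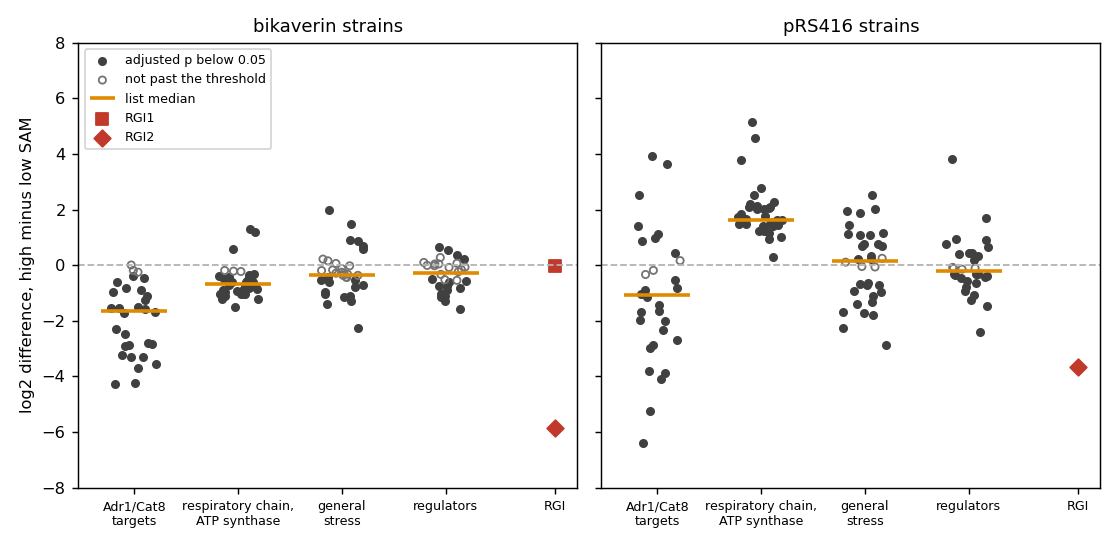
Log2 difference (high minus low SAM, log2(FPKM + 1)) of each gene in 4 lists and of RGI1 (square) and RGI2 (diamond), for the bikaverin strains (left) and pRS416 strains (right). Filled circles passed the adjusted p threshold in limma, RGI1 and RGI2 carry no test, orange lines are list medians and the dashed line is the median of all features; RGI2 lies at -5.84 and -3.67, below all 36 respiratory chain and ATP synthase genes in both panels.

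Among 30 regulators of glucose repression and respiration, 12 fell and 4 rose in the bikaverin strains, and 15 fell and 11 rose in the pRS416 strains. Of all features 27.9% fell and 28.8% rose in the bikaverin strains, and 38.4% fell and 39.1% rose in the pRS416 strains, so that the regulators that rose in the pRS416 strains, 36.7%, were near the share of all features. HAP4, the regulated activator subunit of the Hap complex, fell to 125.8 ± 6.83 FPKM in high SAM, against 280.8 ± 21.1 FPKM in low SAM of the bikaverin strains (n = 3 each, adjusted p = 4.49e-05). In the pRS416 strains HAP4 rose to 1512 ± 307 FPKM in high SAM, against 105 ± 9.10 FPKM in low SAM (n = 3 each, 14.4-fold, adjusted p = 1.55e-08). HAP3, the DNA-binding partner, rose in both, by 0.36 and 1.68 on the log2 scale. HAP1, the heme-responsive activator, fell in both (log2 differences -0.74 and -1.06).

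ADR1 and CAT8, for activators of non-sugar carbon genes, were called in opposite directions in the strain pairs, and not every listed activator was. ADR1 fell to 81.0 ± 6.55 FPKM in high SAM, against 199 ± 11.96 FPKM in low SAM of the bikaverin strains (adjusted p = 3.07e-05), and rose to 159.1 ± 1.51 FPKM, against 119.4 ± 9.75 FPKM, in the pRS416 strains (adjusted p = 0.000545). CAT8, chosen after its values were seen, likewise fell to 25.0 ± 3.07 FPKM in high SAM, against 47.1 ± 2.36 FPKM in low SAM of the bikaverin strains, and rose to 78.1 ± 8.59 FPKM in high SAM, against 41.1 ± 2.55 FPKM in low SAM of the pRS416 strains. RDS2, an activator of gluconeogenesis, fell in both (log2 differences -1.03 and -1.23). The part of these regulators in the levels of RGI2 was not tested.

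The repressor gene MIG1 fell in the pRS416 strains, to 55.4 ± 9.07 FPKM in high SAM, against 153.7 ± 8.001 FPKM in low SAM (n = 3 each, adjusted p = 1.65e-06). In the bikaverin strains MIG1 was called higher (log2 difference 0.22, adjusted p = 0.0325), and that call was lost when any 1 library other than high-SAM replicate 1 was left out (adjusted p 0.0530 to 0.118). The repressor gene NRG2 fell in the pRS416 strains (-2.41) and was not past the threshold in the bikaverin strains (-0.52, adjusted p = 0.0953), though it was past it without high-SAM replicate 1 (adjusted p = 0.0417) or low-SAM replicate 3 (adjusted p = 0.0124). USV1, for a zinc finger factor linked to growth on non-fermentable carbon, fell in both, to 124.1 ± 39.9 FPKM in high SAM, against 364.1 ± 95.5 FPKM in low SAM of the bikaverin strains, and to 495.9 ± 20.7 FPKM in high SAM, against 690.0 ± 17.7 FPKM in low SAM of the pRS416 strains. GIS1, a factor of the diauxic shift, fell in both as well (-1.10 and -0.31).

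**Figure D4:**
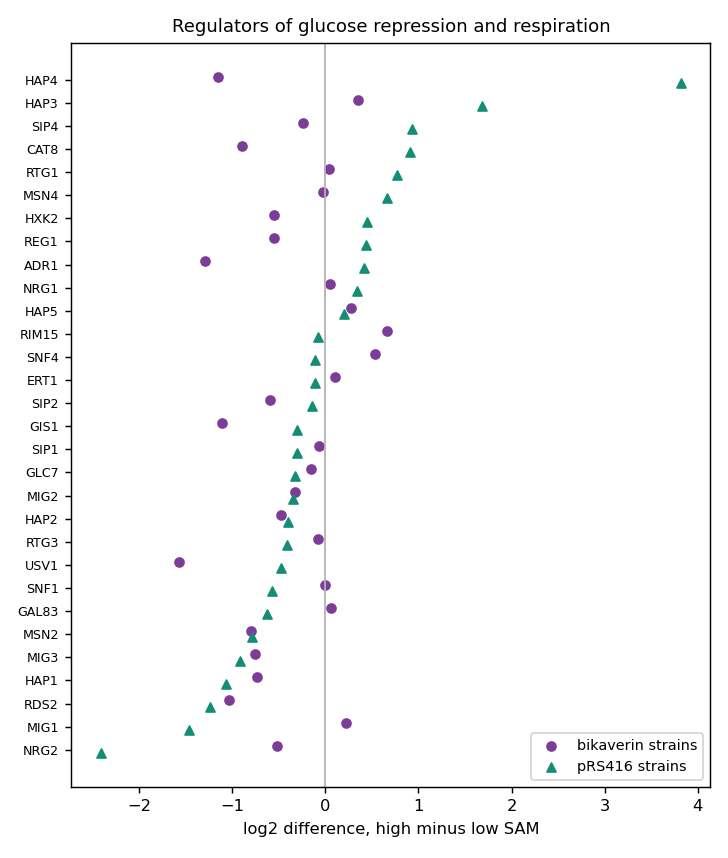
Log2 difference (high minus low SAM, log2(FPKM + 1)) of 30 regulators in the bikaverin strains (circles) and pRS416 strains (triangles), ordered by the pRS416 value. HAP4 stands farthest apart, at -1.15 and 3.82, and ADR1, CAT8 and MIG1 also have opposite signs, while RDS2 and HAP1 lie below 0 in both.

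The features whose pattern over the 12 libraries was nearest to that of RGI2, after each table was centred, were YLR466C-B, PRM8, YGR174W-A, TDA8, YER187W and YGL052W. Their root mean square distance from RGI2 was 0.358 to 0.465 on the log2 scale, against a median of 2.46 over 6281 features, and Pearson's r was 0.986 to 0.998. All 12 libraries share the high and low SAM contrast, so r is high for many features and exceeded 0.9 for 10.1% of them. PRM8, for a pheromone-regulated membrane protein, averaged 0.176 and 2.34 FPKM in high SAM, against 106.1 and 73.0 FPKM in low SAM, of the bikaverin and pRS416 strains. These 6 features averaged 0 to 0.349 FPKM in high SAM of the bikaverin strains, where RGI2 averaged 24.2 FPKM. TDA8 and YGL052W were listed at 0 in high SAM of both pairs. YGR174W-A was at 0 in high SAM of the bikaverin strains only, and YLR466C-B in high SAM of the pRS416 strains only. The distance of the 6 features from RGI2 is thus set in part by the pseudocount of 1. Their likeness to RGI2 holds on the log2(FPKM + 1) scale only. At 0 FPKM, a gene without RNA and a sequence missing from the high-SAM strain cannot be told apart. For RGI1, over 6 bikaverin libraries, the nearest were HST2, MTH1, FCY22, YOR170W, NRG1 and STR3, at 0.154 to 0.190. MTH1 encodes a repressor of hexose transporter genes and averaged 422.9 ± 80.7 FPKM in high SAM and 425.0 ± 77.1 FPKM in low SAM. It shares with RGI1 close group means and a wide spread among replicates.

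Of the genes beside RGI2, those on its left along the chromosome were lower in high SAM of the bikaverin strains, and the gene beyond the transfer RNA gene on its right was higher. The annotated features at either side of RGI2 are transfer RNA gene SUP17, not matched by name to the tables, and YIL059C, which overlaps YIL060W on the other strand. YIL059C fell in the bikaverin strains to 5.24 ± 0.879 FPKM in high SAM, against 31.2 ± 3.24 FPKM in low SAM, and YIL060W to 0.332 ± 0.158 FPKM, against 7.72 ± 3.89 FPKM. In the pRS416 table YIL060W was below the filter, at 0.127 FPKM in high SAM and 1.73 FPKM in low SAM, and YIL059C was not analysed here. Both are uncertain, since the strand setting of the counting is not known. On the other side VHR1, for an activator of biotin uptake genes, rose to 207.8 ± 41.4 FPKM in high SAM, against 108.7 ± 1.92 FPKM in low SAM of the bikaverin strains, and averaged 116.0 ± 14.4 FPKM in high SAM and 115.8 ± 6.78 FPKM in low SAM of the pRS416 strains. Beside RGI1, RRT13 fell in the pRS416 strains (-0.64) and was not past the threshold in the bikaverin strains (-0.03). MOT2, for a subunit of the Ccr4-Not complex, rose in both (0.27 and 0.85), a call lost in the bikaverin strains without high-SAM replicate 2 (adjusted p = 0.0557) or low-SAM replicate 1 (adjusted p = 0.0544). ARG56, for arginine synthesis, was past the threshold in neither (-0.04 and -0.07).

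Markers of mating type also differed between high-SAM and low-SAM strains, and all 4 alpha-cell genes went opposite ways in the strain pairs. In the pRS416 strains all 11 haploid-cell genes and all 4 alpha-cell genes fell, and of 7 a-cell genes 4 fell and 2 rose, where 38.4% of all features fell and 39.1% rose. Summed haploid-cell genes had 145 to 164 FPKM in high-SAM libraries and 914 to 959 FPKM in low-SAM libraries, and summed alpha-cell genes had 63.6 to 74.6 FPKM in high SAM and 966 to 1042 FPKM in low SAM. With the bikaverin module all 4 alpha-cell genes and 6 of 11 haploid-cell genes rose, 1 haploid-cell gene fell, and 1 of 7 a-cell genes fell, where 27.9% of all features fell and 28.8% rose. There summed haploid-cell genes had 716 to 836 FPKM in high SAM and 651 to 685 FPKM in low SAM. Summed alpha-cell genes had 1136 to 2069 FPKM in high SAM and 491 to 611 FPKM in low SAM, and summed a-cell genes 81.3 to 94.8 FPKM in high SAM and 95.6 to 102 FPKM in low SAM. Summed a-cell genes of the pRS416 strains had 108 to 123 FPKM in high SAM and 144 to 150 FPKM in low SAM. No marker was at 0 in all 3 libraries of a group. The part of cell type in the levels of RGI2 was not tested.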

How the data were processed

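Reads were processed by the authors with fastp, HISAT2 2.0.5 and featureCounts 1.5.0-p3 against R64 of the yeast genome, per the submitters' processing notes. The authors deposited FPKM in 2 tables, the bikaverin strains in one and the pRS416 strains in the other. The strand setting, annotation and filters were not given in the sources used. The library name in each header gave the sample of a column, since another label gives other column names. Of 6845 and 6818 features, 86.8% and 87.0% were matched to RefSeq R64 by identifier. Neither table lists a feature at 0 in all 6 libraries. FPKM times exonic length came in steps of 1 read (97.3% to 98.8% of values below 1000 reads were whole to within 0.02), which gave the read numbers; the precision they allow covers counting error only.

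Each pair was tested in its own table with limma 3.58.1 (R 4.3.3, intensity trend) on log2(FPKM + 1), which understates changes of low genes, for features averaging at least 1 FPKM. A call is a Benjamini-Hochberg adjusted p below 0.05 over all features. The difference between the pairs was fitted over all 12 libraries. The fits were also run on simulated libraries in which far fewer features changed than were called here. That run checks the code and does not bear on the calls. Fold changes are ratios of mean FPKM. Sequences are from RefSeq R64, read and aligned with Biopython 1.88, and copies (at least 90% identity over 50% of length) were sought with BLAST+ 2.17.0 for 50 genes. RGI1, RGI2, the gene lists (30 regulators, 30 Adr1/Cat8 targets, 36 respiratory chain and ATP synthase genes, 34 stress genes, mating-type markers), the duplicated pairs and the motifs were chosen with earlier results of these data known. The sequence before RGI2 and 1 further duplicated pair are not reported here. Named genes are regulators called with a log2 difference of at least 1 in either pair, up to 4 genes of smallest p per list and pair (2 are given), the 2 neighbours on each side, the 6 nearest in pattern (over 6 libraries for RGI1 in place of 12) and the 3 widest pairs. Alternatives were a pseudocount of 0.1, no filter, quantile normalization, median scaling, the replicate number as a block, and each library left out.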

Additional observations from a re-analysis of the deposited data

Results flagged for a closer look

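For 25 of 29 named genes the log2 difference, high minus low SAM, was not the same in the bikaverin and pRS416 strains. The tested difference was that of the bikaverin strains less that of the pRS416 strains (adjusted p below 0.05 in limma). Each SAM level of a pair is a single strain, so SAM and strain cannot be told apart. Of all 6282 features 57.3% were called in this comparison. The 29 are mostly regulators and list genes picked for large changes or small p-values. CAT8, PCK1, FBP1 and ICL1 were picked after their values were seen, and the neighbours of RGI1 and RGI2 by position. Genes named only for their likeness in pattern or as wide duplicated pairs are not among the 29. RGI1 and RGI2 were left out of the 29 named genes beforehand and carry no test here. Among regulators it was -4.97 for HAP4, -1.80 for CAT8, -1.70 for ADR1, -1.33 for HAP3, -1.09 for USV1 and -0.80 for GIS1, and it was positive at 1.89 for NRG2, 1.69 for MIG1 and 0.32 for HAP1. The value of HAP1 (adjusted p = 0.0446) was past the threshold in 4 of 16 alternatives, with adjusted p from 0.00377 to 0.101. Among Adr1 and Cat8 targets it was -0.86 for CTA1 and -0.33 for POX1, which fell more in the bikaverin strains, and 2.67 for ADY2 and 1.93 for ATO3, which fell more in the pRS416 strains. It was -3.92 for PCK1, -3.84 for FBP1 and -2.78 for ICL1, which rose in the pRS416 strains. Respiratory chain genes stood at -3.84 for CYC1, -3.37 for CYC7, -2.73 for COX7 and -2.59 for QCR2. Stress genes had 2.52 for ALD3 and -1.62 for HSP78. Genes beside RGI1 and RGI2 had 0.91 for VHR1, 0.62 for RRT13 and -0.58 for MOT2.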

How the results depend on the processing

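RGI2 stayed lower in high SAM, and the order of the paralogs stayed as given, under every scaling, pseudocount and left-out library tried. The log2 difference of RGI2 lay between -5.94 and -5.77 (bikaverin) and between -3.72 and -3.59 (pRS416) with 1 library left out, and in the pRS416 strains it was -3.86 with quantile normalization, a move larger than the spread between replicates whose cause was not tested. The log2 ratio of RGI2 to RGI1 was -1.35 in high SAM (-1.55 to -1.14 with 1 library left out) and 4.51 in low SAM (4.27 to 4.82).

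Called features numbered 3662, 4918 and 3597 (bikaverin, pRS416, difference) and stayed within 1.5 times these counts, at 3050 to 3618, 4570 to 4940 and 3250 to 3590 with 1 library left out. The replicate number as a block gave 3506, 4815 and 3404. The numbers are not known to pair samples: deviations of same-numbered libraries correlated at -0.14 to 0.12. With the block, the calls of MIG1 in the bikaverin strains (adjusted p = 0.0734) and of HAP1 between the pairs (adjusted p = 0.0675) were lost. Calls were gained for NRG2 (adjusted p = 0.0283) and ALD3 (adjusted p = 0.0258) in the bikaverin strains and for CTT1 between the pairs (adjusted p = 0.0252). In the bikaverin strains, a-cell genes called higher numbered 3 with quantile normalization and 0 to 1 with 1 library left out, against 0. A-cell genes called lower numbered 2 with the replicate block, against 1. Haploid-cell genes called lower numbered 1 to 3 with 1 library left out. The cause was not tested. Among single named genes no called direction reversed in any alternative run. With quantile normalization the difference between the pairs was past the threshold for HSP12 (adjusted p = 0.000191). The values of RGI1 rest on 347 to 744 reads per library.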
